A study of Homo sapiens with 4 samples.

Results

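Adherent cells of 2 human colorectal cancer cell lines, the library labelled LOVO and the library labelled HCT116, were compared gene by gene in a deposited RNA-seq table. Genes were taken when their mean FPKM over these 2 libraries was at least 1, which held for 13952 of the 58735 genes in the table. FPKM values divide a gene's fragments by its length and by the size of the library. Both lines were wild type (WT) by their labels, received no treatment, and were grown in RPMI-1640 with fetal bovine serum. Each line also had 1 library of spheroids, which grew in serum-free medium with growth factors and carried a treatment of 1 mg/ml in the labels, where no drug is named. The paper's text gives oxaliplatin for the spheroids at a dose in micrograms per ml, which conflicts with the labels, so the dose is uncertain, and growth form, medium and drug differed together from the adherent cells. Each condition had 1 library, so no difference has a replicate check, no test was made, and a difference between the libraries cannot be told apart from one between 2 cultures of any kind.

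HCT116 and LoVo are established lines from tumours of the large bowel lining. That lining is a sheet of polarised cells held together by E-cadherin and tight junctions, and its identity is kept by transcription factors such as CDX2 and HNF4A. Both lines are known for defective DNA mismatch repair. LoVo is also known as a producer of carcinoembryonic antigen, the product of CEACAM5.

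The library labelled LOVO went against its label in the markers of this epithelium. Of 16 colorectal epithelial markers, 7 had a mean FPKM of at least 1 in the adherent pair and 9 did not. All 7 were lower in the library labelled LOVO, as were 46.3% of all genes compared. For 4 of them the difference exceeded 2 on the log2(FPKM + 1) scale, a size that 5.81% of all genes reached in this direction. EPCAM, CDH1 and CDX2 were below 1 FPKM in that library and passed the filter only through HCT116, which fixed their direction. For these genes the shares over all genes are not a like contrast. EPCAM, the epithelial cell adhesion molecule (chromosome 2, 47345158 to 47387601 on the plus strand of GRCh38), had an FPKM of 85.6 in HCT116 and 0.93 in the library labelled LOVO, from 4397 and 42 reads. CDH1, which encodes E-cadherin, had 31.1 and 0.117 FPKM, from 3920 and 13 reads. The ratio of HCT116 to the library labelled LOVO was 92.1 for EPCAM and its 95% counting interval (exact, Clopper-Pearson) ran from 68.03 to 128, and it was 265 for CDH1, with an interval from 155 to 499. These intervals cover counting error only. CDX2, the homeobox factor of intestinal cells, had 3.84 FPKM from 323 reads in HCT116 and 0 reads in the library labelled LOVO. CEACAM5 had 2 reads in HCT116 and 0 in the library labelled LOVO, and CEACAM6 had 1 and 0. The defining markers EPCAM, CDH1, CDX2 and CEACAM5 were thus at or near 0 in the library labelled LOVO, and the comparison is described throughout as one with the library of that label. It could not be repeated without that library, because no other adherent library of the label was used here.

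The spheroid library of the same label gave the same reading. Its EPCAM was 1.499 FPKM against 79.3 in HCT116 spheroids, its CDH1 0.00805 against 31.1, and its CDX2 and CEACAM5 were at 0. The simple keratins of glandular epithelium were present in both adherent libraries but lower under the LOVO label, with KRT8 at 571 FPKM in HCT116 and 189 in the library labelled LOVO, and KRT18 at 253 and 122. KRT19 stood at 808 and 14.9 FPKM, a ratio of 54.2 (counting interval from 50.05 to 58.7).

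**Figure D1:**
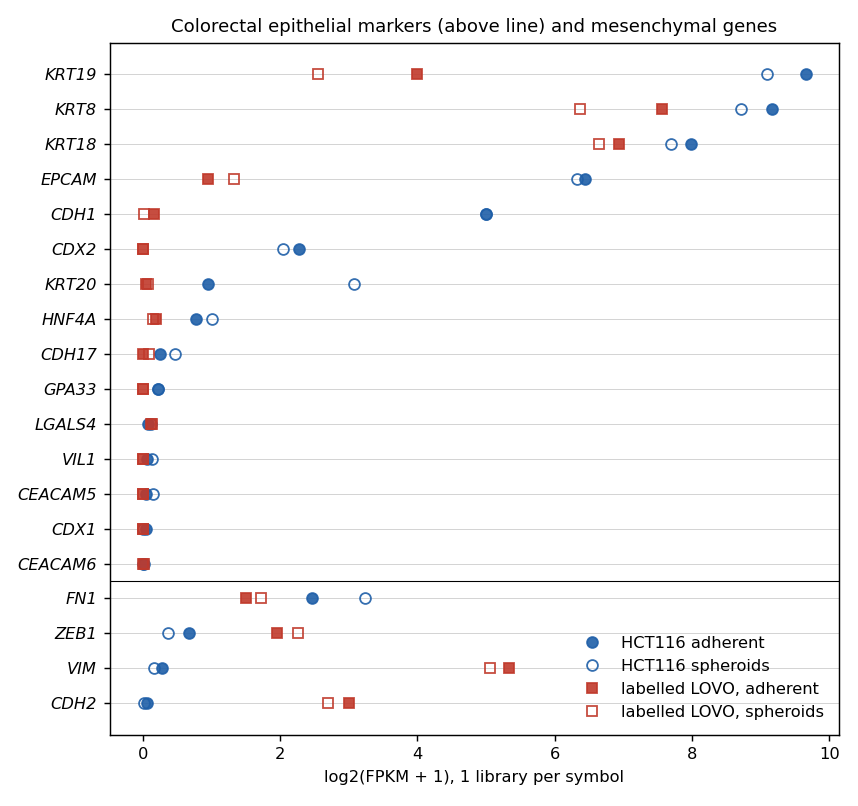
Level of 15 colorectal epithelial markers (above the line) and 4 mesenchymal genes (below it) on the log2(FPKM + 1) scale, with 1 symbol per library and no error bars because each condition had 1 library. Filled symbols are adherent cells and open symbols spheroids. EPCAM, CDH1 and KRT19 lie apart by label in both growth forms, and VIM and CDH2 lie apart in the opposite direction.

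Markers of other cell types were read in the same libraries. None of 10 leukocyte markers reached a mean FPKM of 1, and their summed level was 1.44 FPKM in HCT116 and 0.25 in the library labelled LOVO. Among 8 endothelial and 10 neuroendocrine markers, 1 of each was compared, ESAM and SCG2, and both were lower in the library labelled LOVO. Among 9 fibroblast markers the summed level was 5.62 FPKM in HCT116 and 54.2 in the library labelled LOVO, while COL1A2 and POSTN had 0 reads in both. LUM and DCN, which encode small proteoglycans of connective tissue, had 0 reads in HCT116 and 31.4 and 10.4 FPKM in the library labelled LOVO. Their part in the other differences was not tested.

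Sequencing depth was similar in the adherent pair. The reads recovered on genes numbered 20429147 in HCT116 and 19778829 in the library labelled LOVO, on 28825 and 24306 genes with at least 1 read. The FPKM had been divided by library sizes of 0.998 and 0.907 times these totals, so that the table carries a scaling between libraries. Mitochondrially encoded RNA took 6.77% of the reads in HCT116 and 3.65% in the library labelled LOVO. At these depths 3 reads on a gene of 1 kb, taken here as the floor, correspond to 0.147 FPKM in HCT116 and 0.167 in the library labelled LOVO.

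Differences are given as the library labelled LOVO minus HCT116 on the log2(FPKM + 1) scale, which understates those of genes with low values. The median over the 13952 genes was 0.09, with quartiles at -0.60 and 0.74, and the log2 values of both libraries correlated across genes with Pearson's r = 0.68 (genes are not independent replicates). Genes past a difference of 2 numbered 763 above, which is 5.47% of those compared, and 810 below, which is 5.81%. Both shares are the background for the list counts that follow. A gene below 1 FPKM in 1 library passes the filter only through the other, which fixes the direction of its difference. This holds for many of the list members named below, and for them these shares are not a like contrast. Lowering the pseudocount from 1 to 0.1 gave 1273 above and 1457 below, so the counts depend on how low values are treated. A mean FPKM of at least 5 left 529 above and 383 below, and moved the share of higher genes among those past the threshold from 48.5% to 58.0%. The 5 genes just inside the threshold lay between 2.0001 and 2.009 above and between -2.005 and -2.002 below, and the 5 just outside lay between 1.993 and 1.999 above and between -1.999 and -1.994 below.

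By class, 605 of 11443 protein-coding genes were above the threshold and 686 were below. Of 426 lincRNAs, 47 were above and 28 below, and of 582 antisense genes, 42 were above and 15 below. The counting strand is not given in the sources used here, so an antisense gene and its partner cannot be told apart. Among 902 transcription factor genes, 37 were above and 62 below. Many of these genes were close to absent on one side. Among the 763 higher genes, 220 had 3 reads or fewer in HCT116, and among the 810 lower genes, 304 had so few in the library labelled LOVO. Such low counts in HCT116 and in the library labelled LOVO were seen for 3.3% and 4.68% of all genes compared. These shares are not a like contrast. The filter and the threshold were applied to the same libraries and favour genes near absent in either of them, so an excess follows from the selection.

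**Figure D2:**
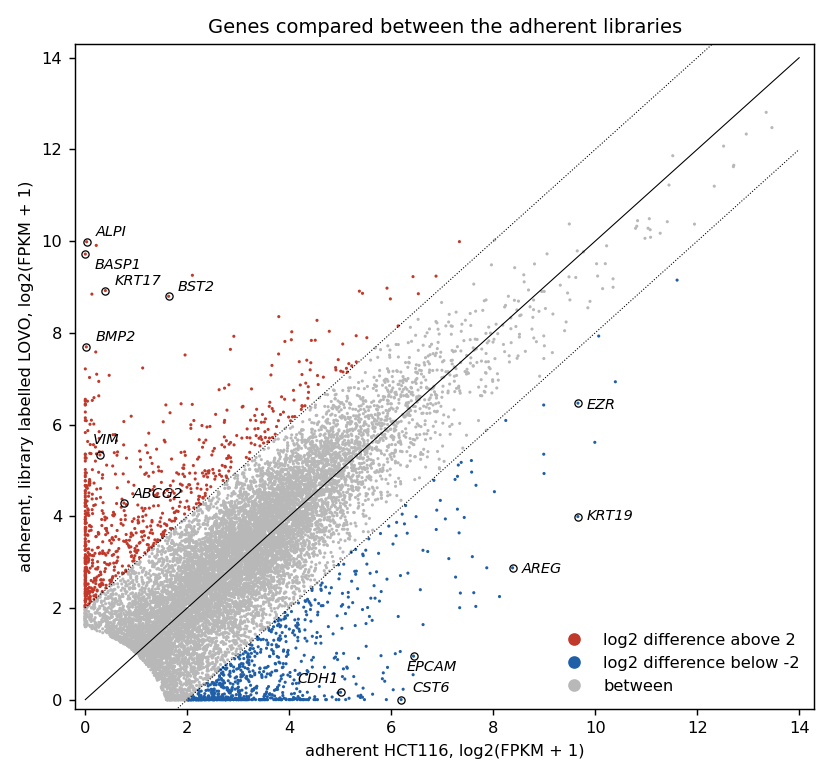
Each point is 1 of the 13952 genes compared, with its log2(FPKM + 1) in adherent HCT116 cells on the x axis and in the adherent library labelled LOVO on the y axis. Dotted lines mark a difference of 2, past which 763 genes lie above (red) and 810 below (blue). Columns of red and rows of blue points at the axes are genes read in 1 library only.

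The largest difference above was that of ALPI, intestinal alkaline phosphatase (chromosome 2, 232456123 to 232460032, plus strand), which had an FPKM of 1013 in the library labelled LOVO and 0.0186 in HCT116, from 47828 reads and 1 read, with a difference of 9.96. Its placental paralog ALPP, on the same chromosome from 232378534 to 232382889, had 959 and 0.16 FPKM from 52612 and 10 reads. The transcripts of ALPI share stretches of 50 bases with those of ALPP and ALPG, so the split of reads between these genes is uncertain. In spheroids ALPI had 164 FPKM under the LOVO label and 0 in HCT116, and ALPP had 63.9 and 0.642. BASP1, a membrane-bound protein of growing nerve endings (chromosome 5, 17065598 to 17276843, plus strand), had 0 reads in HCT116 and 33441 in the library labelled LOVO, at 841 FPKM. Against a floor of 3 reads in the HCT116 library it was at least 12669-fold higher, and no 50-base stretch of its transcripts was shared with another gene.

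Further down the same end came TM4SF1, a surface protein of the tetraspanin-like family, at 459 FPKM in the library labelled LOVO and 0.0936 in HCT116. KRT17, a keratin of basal and stratified epithelia, had 484 and 0.313 FPKM, and shares 50-base stretches with KRT14, KRT16 and several pseudogenes. BMP2, a growth factor of the TGF-beta family, had 206 FPKM from 13305 reads in the library labelled LOVO against 1 read in HCT116. CPS1, the first enzyme of the urea cycle, had 610 FPKM against 3.29, a ratio of 186 (counting interval from 173 to 200). In spheroids the difference of CPS1 was smaller, with 73.1 and 4.41 FPKM. IGFBP7, a secreted binding protein of insulin-like growth factors, had 191 against 0.153 FPKM, and C4BPB, a chain of a complement inhibitor, had 147 FPKM against 0 reads.

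At the opposite end, CST6, a secreted inhibitor of cysteine proteases, had 72.2 FPKM from 1117 reads in HCT116 and 0 reads in the library labelled LOVO, at least 328-fold lower against 3 reads. F2RL1, a receptor activated by proteases, stood at 74.2 and 0.17 FPKM. SPINT2, an inhibitor of membrane-bound serine proteases, stood at 64.7 and 0.161. MDK, the growth factor midkine, had 85.2 FPKM in HCT116 and 0.457 in the library labelled LOVO, and in spheroids 80.1 and 14.8. CRABP2, a carrier of retinoic acid, had 201 and 3.09 FPKM, and WNT16, a WNT ligand, 48.7 and 0.0855. Other genes read almost only in HCT116 were FABP5, a fatty acid carrier with several pseudogenes that share its sequence (43.5 FPKM and 0 reads), IGFBP2 (33.4 FPKM and 0 reads) and NGFR, the low-affinity neurotrophin receptor (27.7 FPKM and 3 reads). For NGFR the ratio of HCT116 to the library labelled LOVO was 686, with a counting interval from 235 to 3330.

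Genes of cell adhesion and of epithelial splicing were often lower. Of 47 in the list, 44 were compared, with a median of -1.67. Past the threshold 16 were lower and 1 higher, against 5.81% and 5.47% of all genes compared. Members below 1 FPKM in the library labelled LOVO, such as ESRP1, RAB25 and ST14, passed the filter only through HCT116, which fixed their direction. For such members the shares over all genes are not a like contrast. ESRP1, which sets the epithelial pattern of splicing, had 41.3 FPKM from 4105 reads in HCT116 and 0.0686 from 6 reads in the library labelled LOVO. RAB25, a GTPase of apical recycling, had 1422 reads against 1. ST14, the membrane protease matriptase, had 59.8 and 0.628 FPKM. ESRP1 and RAB25 were therefore nearly unread in the library labelled LOVO, whereas ST14 was low but still read. In the same library CDH1 had 13 reads and EPCAM 42. GRHL2, a transcription factor of epithelial genes chosen for mention after its values were seen, had 5.73 FPKM in HCT116 and 0 in the library labelled LOVO. In spheroids 13 members were lower and 1 higher past the threshold, with a median of -1.22.

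The claudins, which form the strands of tight junctions, lay mostly low. Of 24 members 8 were compared, 7 below 0 and 1 above, against 46.3% and 53.7% of all genes compared. Past the threshold 1 was above and 2 below, against 5.47% and 5.81% of all genes compared. Their median was -1.42 in adherent cells and -1.08 in spheroids. CLDN4 had 57.6 FPKM in HCT116 and 0.32 in the library labelled LOVO, and CLDN3 had 16.5 and 1.18. CLDN1 went the other way, at 0.75 in HCT116 and 37.5 in the library labelled LOVO, a ratio of 50.03 (counting interval from 38.4 to 66.4). The same order held for these 3 genes in spheroids. Of 5 cadherins compared, 1 was above the threshold and 3 were below. CDH1 and CDH15 passed the filter only through HCT116 and CDH2 only through the library labelled LOVO, which fixed their direction. CDH3, P-cadherin, had 34.7 FPKM in HCT116 and 3.71 in the library labelled LOVO, whereas CDH2, N-cadherin of neural and mesenchymal cells, had 0.0396 from 4 reads and 6.98 from 620.

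Keratins differed in kind and also in sum, with a summed level of 1692 FPKM in HCT116 and 1146 in the library labelled LOVO. In spheroids the sums were 1255 and 358 FPKM. Of 12 compared, 3 were above the threshold (KRT17, KRT7 and KRT80) and 3 below (KRT19, KRT15 and KRT23). The shares over all genes compared were 5.47% above and 5.81% below. KRT7, a keratin of many glandular epithelia outside the colon, had 6.53 FPKM in HCT116 and 242 in the library labelled LOVO, a ratio of 37.0 (counting interval from 34.0 to 40.4). KRT20, the keratin of intestinal surface cells, had 35 reads in HCT116 and 1 read in the library labelled LOVO. In spheroids KRT20 stood at 7.45 FPKM in HCT116 and 0.0538 under the LOVO label.

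Among intestinal transcription factors, 15 of 30 were compared, with 1 above and 3 below the threshold, against 5.47% and 5.81% of all genes compared. Their median was -0.57 in adherent cells and -0.17 in spheroids. SOX9, a factor of the crypt base, had 39.8 FPKM from 3195 reads in HCT116 and 4 reads in the library labelled LOVO. FOXA3 had 3.38 FPKM in HCT116 and 1 read in the library labelled LOVO. FOXA1 was the member above the threshold, at 0.567 FPKM in HCT116 and 5.798 in the library labelled LOVO. HNF4A, below the filter, had 0.705 and 0.137 FPKM.

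Most brush border and enterocyte genes did not reach the filter. Of 35, 9 were compared, with 3 above and 3 below the threshold, against 5.47% and 5.81% of all genes compared. EZR, the linker of the brush border to actin, had 809 FPKM in HCT116 and 87.4 in the library labelled LOVO. CA2, a carbonic anhydrase of enterocytes, had 24.8 and 0.63, and ESPN, an actin bundler of microvilli, had 18.8 and 1.87. VIL1, the villin of the microvillus core, had 6 reads in HCT116 and 0 in the library labelled LOVO. The 3 members above were ALPI, TSPAN8 (0.039 and 5.98 FPKM) and CA9, a carbonic anhydrase known for its response to low oxygen (0.47 and 7.98 FPKM). Of 28 mucin, trefoil and secretory genes 3 were compared, 1 on each side of the threshold and 1 between, and MUC1, a membrane mucin, had 0.25 FPKM in HCT116 and 14.2 in the library labelled LOVO. Among 12 genes of the CEA family 1 was compared, CEACAM19, at 2.08 and 2.72 FPKM.

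Mesenchymal genes lay more often above than below. Of 27 compared among 36, 9 were above the threshold and 3 below, against 5.47% and 5.81% of all genes compared. Their median was 0.71. VIM, COL5A1 and TGFBI were below 1 FPKM in HCT116 and passed the filter only through the library labelled LOVO, which fixed their direction. SNAI1 passed it only through HCT116. For such members the shares over all genes are not a like contrast. VIM, the intermediate filament vimentin, had 0.219 FPKM from 23 reads in HCT116 and 39.4 from 3645 reads in the library labelled LOVO, a ratio of 180 (counting interval from 120 to 285). About 24.4% of the exonic bases of VIM lie under an exon of another gene on the opposite strand. COL5A1, a chain of fibrillar type V collagen, had 0.0658 and 63.2 FPKM, and TGFBI, a secreted matrix protein, had 0.163 and 19.9. Not all members shared this direction. SNAI1, a repressor of E-cadherin, had 21.2 FPKM in HCT116 and 0.893 in the library labelled LOVO.

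Collagen chains went both ways in the same manner. Of 18 compared, 8 were above the threshold and 3 below, against 5.47% and 5.81% of all genes compared. Members below 1 FPKM in 1 library, such as COL4A1, COL4A2, COL15A1 and COL6A2, had their direction fixed by the filter, so for them these shares are not a like contrast. COL4A1 and COL4A2, the common chains of basement membrane, had 14 and 6 reads in HCT116 and 7.43 and 17.7 FPKM in the library labelled LOVO. COL15A1 stood at 0.457 and 53.9 FPKM. COL6A2, a chain of beaded type VI collagen, had 35.1 FPKM from 3850 reads in HCT116 and 2 reads in the library labelled LOVO, and COL18A1 had 22.4 and 1.76. The median of the collagen list was 1.36 in adherent cells and 0.03 in spheroids. With no filter on low values the adherent median turned to -0.03, so the list as a whole has no stable direction. Among 22 integrins and laminins compared, 2 were above the threshold and 6 below, against 5.47% and 5.81% of all genes compared. Their median was 0.57, with 12 above 0 and 10 below. It turned negative with no filter on low values and at a mean FPKM of at least 5, so this list has no stable direction either. In spheroids 2 were above the threshold and 3 below, with a median of 0.33. ITGA2, ITGA3, ITGA6 and ITGB4 were each lower past the threshold in the library labelled LOVO, and ITGA1 was higher. ITGB4, a chain of the anchoring junctions of epithelium, had 38.5 FPKM in HCT116 and 5.65 in the library labelled LOVO.

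Genes induced by interferon were higher in the library labelled LOVO. When interferon binds its receptor, a complex that includes STAT2 and IRF9 enters the nucleus and binds short elements rich in GAAA repeats in front of antiviral genes. Of 43 such genes, 33 were compared, and 19 were above the threshold, against 5.47% of all genes compared, and none below. Their median was 2.30 against 0.09 over all genes compared. Some, such as IFIT3 and OAS1, were below 1 FPKM in HCT116 and passed the filter only through the library labelled LOVO. All 33 were above 0, as were 53.7% of the genes compared, and the smallest difference was 0.06 for STAT2. In spheroids 22 were above the threshold and none below, with a median of 2.75. BST2, which tethers budding viruses to the membrane, had 2.10 FPKM from 48 reads in HCT116 and 444 from 8904 reads in the library labelled LOVO. IFITM1, which blocks viral entry, had 1.18 and 149 FPKM, although it shares 50-base stretches with IFITM2 and IFITM3. IFIT1, which binds viral RNA, had 1.96 and 48.2 FPKM, and its partner IFIT3 had 0.483 and 40.8. OAS1, a sensor of double-stranded RNA, had 0.198 and 30.1 FPKM. The same genes were high in the spheroids of the LOVO label, with 649 FPKM for BST2, 743 for IFITM1, 56.4 for IFIT3, 54.0 for OAS1 and 55.7 for IFIT1. Values in HCT116 spheroids were 5.37, 2.54, 0.519, 0.385 and 3.47 FPKM in the same order. The other 10 members did not reach the filter. Among these, named after their values were seen, MX1 had 0.18 and 0.43 FPKM, EPSTI1 0.38 and 0.034, and GBP2 0.47 and 0.28.

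To show what lies in front of these genes, the 200 bases before the RefSeq start are printed for the members with the largest differences, except IFIT2, in the strand of the gene and on build GRCh38.p14. The windows are chr19:17405631-17405830 (minus strand) for BST2, chr11:313840-314039 (plus) for IFITM1, chr10:89327797-89327996 (plus) for IFIT3, chr12:112906762-112906961 (plus) for OAS1 and chr10:89392423-89392622 (plus) for IFIT1. Capitals mark the letters GAAA, any 2 bases and GAAA again on either strand, which read TTTC, 2 bases and TTTC on the printed strand when the match is on the other.
BST2: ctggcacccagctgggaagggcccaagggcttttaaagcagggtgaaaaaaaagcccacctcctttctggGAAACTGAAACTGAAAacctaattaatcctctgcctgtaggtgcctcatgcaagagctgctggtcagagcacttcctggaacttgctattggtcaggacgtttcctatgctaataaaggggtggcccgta
IFITM1: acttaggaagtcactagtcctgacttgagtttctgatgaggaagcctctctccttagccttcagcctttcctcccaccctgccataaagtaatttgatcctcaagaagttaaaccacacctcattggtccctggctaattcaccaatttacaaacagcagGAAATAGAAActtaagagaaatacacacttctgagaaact
IFIT3: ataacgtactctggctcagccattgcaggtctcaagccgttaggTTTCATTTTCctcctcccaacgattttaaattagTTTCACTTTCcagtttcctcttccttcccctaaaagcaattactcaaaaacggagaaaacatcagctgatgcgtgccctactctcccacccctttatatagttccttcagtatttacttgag
OAS1: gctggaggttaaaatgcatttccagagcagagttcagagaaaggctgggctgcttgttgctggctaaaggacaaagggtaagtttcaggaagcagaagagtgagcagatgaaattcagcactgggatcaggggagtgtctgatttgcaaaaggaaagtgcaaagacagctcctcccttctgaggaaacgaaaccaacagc
IFIT1: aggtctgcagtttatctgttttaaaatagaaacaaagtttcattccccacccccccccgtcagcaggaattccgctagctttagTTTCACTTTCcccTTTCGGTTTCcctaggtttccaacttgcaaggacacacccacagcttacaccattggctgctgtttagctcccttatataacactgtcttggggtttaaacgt
In BST2 both matches overlap, starting 130 and 124 bases before the RefSeq start, IFITM1 has 1 match 40 bases before it, and IFIT3 and IFIT1 have 2 each, at 156 and 122 and at 116 and 103 bases. In the OAS1 window these letters were not found, from which nothing follows about the factor. The motif was chosen after the values were seen. It occurs in 662 of 27195 promoter windows of the same length in the RefSeq table, or 2.43%. No count over the gene lists is given, since fewer than 80% of the genes past the threshold had an entry in that table, 75.5% of the higher and 69.4% of the lower protein-coding genes, which makes such a count void.

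MHC class I molecules show peptides on the cell surface. Of 19 genes of this pathway compared, 3 were above the threshold, against 5.47% of all genes compared, and none below. Above 0 were 14, against 53.7% of all genes, and 5 were below, with a median of 0.80 and a lowest difference of -1.01. B2M, the invariant light chain, had 62.2 FPKM in HCT116 and 427 in the library labelled LOVO, a ratio of 6.86 (counting interval from 6.69 to 7.02). PSMB8, a catalytic subunit of the immunoproteasome, had 0.262 from 16 reads and 41.2 from 2214 reads. HLA-B had 69.3 and 283 FPKM, where sequence shared among the HLA genes leaves the split of reads uncertain. NLRC5, the activator of these genes, stood at 0.931 and 5.96 FPKM. In spheroids 8 members were above the threshold.

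The mismatch repair genes were all higher in the library labelled LOVO. All 12 were compared, all 12 lay above 0, and 2 passed the threshold, against 53.7% and 5.47% of all genes compared. Their median was 1.14 in adherent cells and 1.13 in spheroids. PCNA, RFC1, RPA1 and LIG1, which also act in DNA replication, are counted in this list. EXO1, the exonuclease that removes the mismatched strand, had 5.81 FPKM in HCT116 and 49.1 in the library labelled LOVO. MSH6, which recognises mismatches, stood at 5.73 and 18.6 FPKM, MSH3 at 0.615 and 5.03 and PMS1 at 5.96 and 6.74, so the members ranged from level to several-fold.

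WNT signalling keeps the crypt base of the intestine in a growing state, and its targets include feedback inhibitors of the pathway itself. Of 20 WNT target and feedback genes compared among 34, 10 were lower and 1 higher past the threshold. Over all genes compared, 5.81% were lower and 5.47% higher past it. Among the lower members, SOX9, EPHB2 and EPHB3 were below 1 FPKM in the library labelled LOVO. They passed the filter only through HCT116, which fixed their direction, so for them these shares are not a like contrast. The median of the list was -1.98 in adherent cells and -2.09 in spheroids. Besides SOX9, the lower members included DKK1, a secreted inhibitor, at 190 FPKM in HCT116 and 30.2 in the library labelled LOVO. KREMEN1, a receptor for DKK1, had 17.3 and 1.90 FPKM. CCND1, cyclin D1, had 158 and 33.7. EPHB2 and EPHB3, receptors that sort cells along the crypt, had 6.69 and 0.307 FPKM and 8.62 and 0.135 FPKM. AXIN2, a feedback inhibitor chosen for mention after its values were seen, had 3.02 FPKM in HCT116 and 0 in the library labelled LOVO. BMP4, also counted among these targets, had 69.4 and 2.51 FPKM.

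BMP and TGF-beta genes as a list had a median of 0.09, equal to that of all genes, with 4 above and 4 below the threshold among 34. The ligands stood on opposite sides, BMP4 being high in HCT116 and BMP2 in the library labelled LOVO. NOG, which binds and blocks BMP ligands, had 1.24 and 29.1 FPKM, and INHBE, a chain of activin E, had 1.04 and 18.0. ID2, a target of BMP signalling, had 54.8 FPKM in HCT116 and 4.12 in the library labelled LOVO, and in spheroids 91.7 and 0.338.

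Genes of the EGF receptor family, its ligands and the feedback of the ERK pathway lay on both sides, more of them below. Of 22 compared, 9 were below the threshold and 3 above, against 5.81% and 5.47% of all genes compared. Their median was -1.50 in adherent cells and -0.74 in spheroids, where 7 were below the threshold and 2 above. The filter fixed the direction of members below 1 FPKM in 1 library, such as TGFA, DUSP6, SPRY4, EPGN and NRG4. For such members the shares over all genes are not a like contrast. AREG, the ligand amphiregulin, had 332 FPKM in HCT116 and 6.33 in the library labelled LOVO, a ratio of 52.5 (counting interval from 45.4 to 61.0). TGFA, another ligand, had 19.4 and 0.551. DUSP5 and DUSP6, phosphatases that switch ERK off, had 163 and 4.01 FPKM and 40.0 and 0.867 FPKM, and SPRY4, an inhibitor upstream of ERK, had 23.1 and 0.221. The 3 members above the threshold were the receptor EGFR (18.8 FPKM in HCT116 and 84.0 in the library labelled LOVO) and the ligands EPGN (0.0541 and 4.46) and NRG4 (0.302 and 5.93), all named after their values were seen. Of 33 YAP targets and early response genes of serum, 3 were above the threshold and 6 below, against 5.47% and 5.81% of all genes compared. Their median was -0.19, with 15 above 0 and 18 below. In spheroids 3 were above the threshold and 1 below, with a median of 0.10. EGR1 stood at 196 and 4.03 FPKM and JUN at 94.0 and 4.27. YAP1, the effector of the Hippo pathway, stood at 12.8 and 185, and its relation to the listed genes was not tested.

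Targets of p53 passed the threshold on the low side only. Of 27 compared, 9 were below it, against 5.81% of all genes compared, and none above. Below 0 were 19, against 46.3% of all genes, and 8 were above. The median was -0.80 in adherent cells and -0.94 in spheroids. CDKN1A, the cell cycle inhibitor p21, had 202 FPKM in HCT116 and 24.5 in the library labelled LOVO, a ratio of 8.21 (counting interval from 7.76 to 8.70). TP53INP1, a stress protein, had 12.6 and 0.167 FPKM, and PLK3, a stress kinase, had 31.7 and 1.94. FDXR, a mitochondrial reductase, had 36.4 and 4.99, GADD45A, a DNA damage response gene, had 124 and 19.3, and KITLG, the ligand of KIT, had 118 and 16.5. The highest difference in the list was 1.00, for TP53I3, an oxidoreductase-like protein, at 4.48 and 9.99 FPKM. BAX and XPC, of the same list, were near level at 18 and 18 and at 11 and 11 FPKM, and these 3 genes were named after their values were seen.

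In the G1 phase of the cell cycle, inhibitors of the cyclin-dependent kinases differed in kind. CDKN2A, which encodes p16 and ARF, had 9.95 FPKM in HCT116 and 65.2 in the library labelled LOVO, a ratio of 6.55 (counting interval from 6.10 to 7.05). CDKN2C had 2.85 and 28.2, whereas CDKN1C had 21.6 and 5.11 and CDKN2D 17.1 and 2.37. Genes of G2 and mitosis did not pass the threshold in either direction among 30, with a median of 0.27 in adherent cells. In spheroids their median was 1.38 and 4 were above the threshold. AURKA, a mitotic kinase, had 18.1 and 51.9 FPKM in adherent cells, and CDC20, an activator of mitotic exit, had 168 and 43.8.

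Among the genes at the centre of the study, ABCG2, a drug efflux pump, was 26.8 times as high in the library labelled LOVO as in adherent HCT116 cells (counting interval from 21.1 to 34.5), with a difference of 3.53. Of 24 members of the ABC transporter family compared, 3 were above the threshold, ABCG2 and ABCC4 among them, and none below. Over all genes compared, 5.47% were above and 5.81% below. The family's median was 0.29 in adherent cells and 0.12 in spheroids. ABCC4, another efflux pump, had 8.35 FPKM in HCT116 and 41.0 in the library labelled LOVO, but 9.93 and 11.9 in spheroids. ABCC3 stood at 3.11 and 13.8 FPKM. WDR5, a subunit of histone H3 lysine methylases, differed by 0.44. TOX3 had 1 and 4 reads, so that no difference was detectable at this depth. Of 14 stem-like markers compared, 4 were above the threshold and 4 below, against 5.47% and 5.81% of all genes compared. PROM1, which encodes CD133, had 4.84 FPKM in HCT116 and 4 reads in the library labelled LOVO, and CD44 had 45.8 and 11.6, whereas CD24 had 11.3 and 88.6.

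Enzymes that conjugate or reduce reactive compounds lay on both sides, with 8 of 33 above the threshold and 3 below. The shares over all genes compared were 5.47% and 5.81%. GSTM3, a glutathione transferase, had 0 reads in HCT116 and 24.4 FPKM in the library labelled LOVO, at least 788-fold higher against 3 reads. AKR1B1, an aldose reductase, had 17.3 and 165 FPKM, and AKR1C2, of the same superfamily, had 0.159 and 10.8. ALDH3B1 stood at 2.30 and 26.2, while ALDH1A3, an enzyme of retinoic acid synthesis, stood at 49.7 and 4.60. CYP24A1, which breaks down vitamin D, had 943 reads in HCT116 and 2 in the library labelled LOVO.

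Targets of NF-kappa-B and chemokines had a median of 0.67, with 2 above and 3 below the threshold among 19. Over all genes compared, the shares past it were 5.47% and 5.81%. Above 0 were 13 members and below it 6. In spheroids 8 were above the threshold and 1 below, with a median of 1.46. CXCL8, a chemokine that attracts neutrophils, had 32.0 FPKM from 1481 reads in HCT116 and 0.417 from 17 reads in the library labelled LOVO. CXCL1, a related chemokine, had 196 reads and 0. CD83, a surface molecule of activated cells, had 5.64 and 110 FPKM, and LCN2, an iron-binding secreted protein, had 1.11 and 9.77.

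Cancer-testis genes are normally silent outside the germ line, and HOX genes pattern the body axis. Of 27 MAGE genes 7 were compared, with 4 above the threshold and 1 below, against 5.47% and 5.81% of all genes compared. MAGEA1 had 0 reads in HCT116 and 39.6 FPKM in the library labelled LOVO, MAGEA6 had 8 reads and 41.5 FPKM, and MAGEA3 had 54.3 FPKM in HCT116 and 11.3 in the library labelled LOVO. MAGEA3 and MAGEA6 share long stretches of sequence, so that reads may have been split between them. PAGE1, also a cancer-testis gene of the X chromosome, had 0 reads and 91.1 FPKM. Of 24 HOX genes compared, 20 lay between the thresholds, with a median of 0.36 in adherent cells and 0.09 in spheroids. HOXC10 (1.37 and 28.3 FPKM), HOXA11 (1.53 and 17.7) and HOXD9 (0.262 and 8.11) were above the threshold, and HOXA9 was below it at 15.8 and 1.75 FPKM. Of 13 imprinted genes compared, 2 were on each side of the threshold, and H19 had 2 reads in HCT116 and 16.9 FPKM in the library labelled LOVO. Among 11 S100 genes, 2 were above and 1 below. S100P, a calcium-binding protein, had 0.383 and 134 FPKM, and S100A14, of the same family, had 161 and 3.01.

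Ribosomal and mitochondrial genes had few members past the threshold. Of 82 cytosolic ribosomal protein genes, 61 were below 0, against 46.3% of all genes compared. Their median was -0.31 in adherent cells and -0.99 in spheroids. Past the threshold there was 1 on each side, against 5.47% above and 5.81% below over all genes compared. RPL39L, a testis-enriched paralog of RPL39, had 0 reads in HCT116 and 40.0 FPKM in the library labelled LOVO, though it shares sequence with other genes. RPL28 had 113 and 26.5 FPKM. All 13 mitochondrially encoded mRNAs were below 0, against 46.3% of all genes compared, with a median of -0.99. They are part of the lower share of mitochondrial reads given above, so their common direction largely restates that share. MT-ND3 had the lowest difference of these, -1.58.

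The spheroid libraries gave a second reading of the same pair of labels, in libraries that the adherent comparison did not use. Of the 763 genes above the threshold in adherent cells, 443 (58.1%) were also above it in spheroids, where 5.20% of the same 13952 genes were above it, and 735 (96.3%) were above 0. Of the 810 genes below, 483 (59.6%) were also below it in spheroids, where 4.59% of all were, and 779 (96.2%) were below 0. Their median spheroid differences were 2.24 and -2.22. Across the 13952 genes the adherent difference correlated with the spheroid difference at Pearson's r = 0.81, a description across genes. Opposite directions past the threshold were seen for 2 genes, A2M, a broad protease inhibitor (2.03 in adherent cells and -2.71 in spheroids), and CXCL8 (-4.54 and 4.93).

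**Figure D3:**
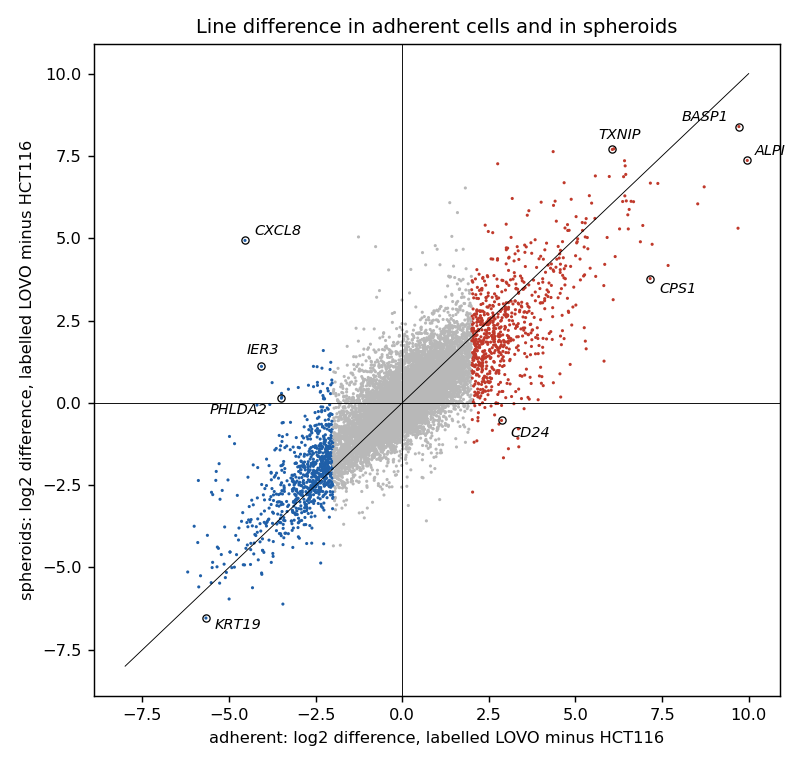
Each point is 1 of the 13952 genes, with its difference (labelled LOVO minus HCT116, log2(FPKM + 1)) in adherent cells on the x axis and in spheroids on the y axis, coloured by the adherent difference above 2 (red) or below -2 (blue). Most coloured points keep their side of 0, and CXCL8 lies at -4.54 and 4.93.

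The differences were not spread evenly along the genome. On the first 60 Mb of chromosome 5, 153 genes were compared, and their median difference was 1.41 in adherent cells and 0.94 in spheroids. Of these genes 41 (26.8%) were above the threshold and 81.0% were above 0, against 5.47% and 53.7% of all genes compared. The other 487 genes of chromosome 5 had a median of 0.14. The stretch is made up of the 3 windows with the highest adherent medians, given below, so its high adherent values follow from that choice. BASP1 lies in this stretch, and so do NNT, a mitochondrial proton pump (0.01 and 37.5 FPKM), DAB2, an endocytic adaptor (1.99 and 85.1 FPKM), and AHRR, a repressor of the aryl hydrocarbon receptor (2.68 and 86.6 FPKM), which were chosen for mention after their values were seen. Among 152 windows of 20 Mb, the 3 with the highest medians were those of this stretch, at 1.23, 1.63 and 1.23. The lowest were the first 20 Mb of chromosome 8, at -0.97, and the last window of chromosome 4, from 180 to 200 Mb, at -0.86. By whole chromosome, the median was 0.81 over 458 genes of chromosome X, 0.48 on chromosome 15, -0.42 on chromosome 8 and -0.27 on chromosome 19. Gene copy number was not measured in this table, and its part was not tested.

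**Figure D4:**
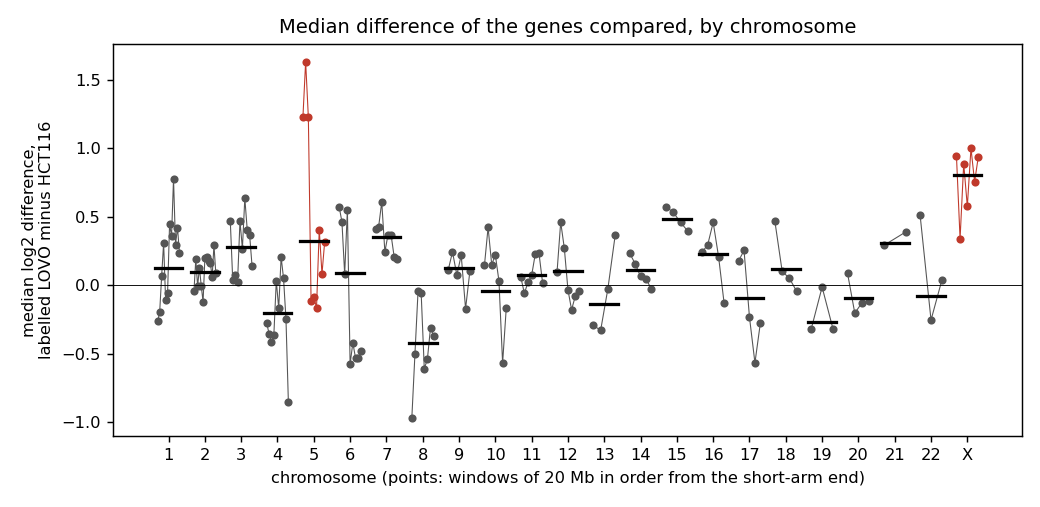
Median difference (labelled LOVO minus HCT116, log2(FPKM + 1)) of the genes compared in windows of 20 Mb, drawn as points in order along each chromosome, with a bar at the chromosome's median. Chromosomes 5 and X are in red, and the 3 highest points are the first 60 Mb of chromosome 5.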

How the data were processed

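RNA-seq was performed by the authors on total RNA prepared with a SMARTer mRNA-seq kit, with 1 library per condition (4 in all). The authors deposited 1 FPKM value per gene and library, with gene lengths. The aligner, counter and strand setting are not given in the sources used here. The submitters' processing notes name the mouse builds GRCm38 and mm10, whereas all 58735 identifiers are human genes of GENCODE 29, so gene positions are those of GRCh38. FPKM multiplied by gene length gave whole reads within a tolerance of 0.01 for 100.0% of the values above 0, from which reads per gene were recovered. Differences were taken as log2(FPKM + 1) for genes whose FPKM averaged 1 or more, with a threshold of 2, without a test, because each condition had 1 library. Exact (Clopper-Pearson) 95% intervals of read ratios cover counting error only, and genes with 0 reads were set against a floor of 3 reads per library. Genes named are the 10 largest differences of coding genes in each direction, the 10 highest of those read in 1 library only, up to 6 of each of 37 lists, the markers, the mismatch repair genes and the study's genes. A few others were chosen after their values were seen, and some genes that this rule names are not reported here. The genes, lists and comparisons were chosen with earlier results of these data known. Promoter features over gene lists were planned but are not reported, since the RefSeq table covered too few genes. Shared sequence was searched as identical stretches of 50 bases among GENCODE 29 transcripts, and 104 of 215 named genes had one. Alternatives were the pseudocount, the filter, TPM rescaling, TMM-style scaling, centring, coding genes only and a threshold of 1. Python 3.11.15, numpy 2.4.6, pandas 2.3.3 and scipy 1.17.1 were used, and the scripts were tested on simulated data.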

Additional observations from a re-analysis of the deposited data

Results flagged for a closer look

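For 4 of the genes reported here under the naming rule and past the threshold in the adherent cells, and for A2M, which was named after its values were seen (2.03 and -2.71), the difference between the labels had the opposite sign in the spheroids, and these differences between growth forms were not tested, since each condition had 1 library. CXCL8 stood at -4.54 in adherent cells and 4.93 in spheroids, where its FPKM was 7.07 in HCT116 and 245 in the library labelled LOVO. IER3, an early response gene, stood at -4.06 and 1.11, with 510 and 29.5 FPKM in adherent cells and 409 and 882 in spheroids. PHLDA2, an imprinted gene, stood at -3.49 and 0.14. CD24 stood at 2.87 and -0.54, with 11.3 and 88.6 FPKM in adherent cells and 34.4 and 23.4 in spheroids, and its transcripts share 50-base stretches with 49 other genes.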

How the results depend on the processing

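No gene among the 204 named genes that were compared changed sign under the 5 scalings and pseudocounts tried. That outcome was largely fixed in advance, since a pseudocount cannot change a sign. The median moved by only 0.06 with TPM, -0.01 with TMM-style scaling and -0.09 with centring, while 147 of the named genes were past the threshold. Nothing about the stability of the results follows from it. The counts of genes past the threshold moved more. With a pseudocount of 0.1 they were 1273 higher and 1457 lower, with 0.01 they were 1330 and 1519, after rescaling to TPM 1182 and 1284, and at a threshold of 1 they were 2520 and 2281. A mean FPKM of at least 5 left 383 lower genes. The share of higher genes also higher in spheroids was 65.3% with a pseudocount of 0.1, 66.4% with 0.01 and 66.5% with TPM. That of lower genes was 64.4% and 64.6% with these pseudocounts and 65.1% at a threshold of 1. TMM-style scaling gave 757 and 813, and centring on the median gene 701 and 907, by which the share of higher genes among those past the threshold went to 43.6%. The median of the collagen list reversed to -0.034 with no filter on low values. Medians of 8 of 36 lists changed sign under at least 1 setting. The cause of these changes was not tested, but a smaller pseudocount gives low values more weight by construction. Rescaling to TPM acts in the same way, since it multiplied FPKM by 3.19 in adherent HCT116 and 3.29 in the adherent library labelled LOVO. The pseudocount stayed at 1. No paired analysis was possible because each condition had 1 library and the labels carry no replicate numbers, and for the same reason no replicate could be left out. Genes with 0 reads in a library can be read only as bounds, and no value here carries an error between cultures.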
